A study of Mus musculus with 7 samples.

Results

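The miR-30 family was followed in small RNA libraries of mouse hepatocytes, as the 10 listed mature miRNAs of 6 hairpins in 3 loci, out of 1966 miRNA entries counted in each library. The members were taken by name from the family, with no threshold on a measured value. They are the 5p arms mmu-miR-30a-5p, mmu-miR-30b-5p, mmu-miR-30c-5p, mmu-miR-30d-5p and mmu-miR-30e-5p, and the 3p arms mmu-miR-30a-3p, mmu-miR-30c-1-3p, mmu-miR-30c-2-3p, mmu-miR-30d-3p and mmu-miR-30e-3p. The genotypes compared were WT, with 3 libraries, and ALAS12-KO, with 4 libraries. All 7 carry the treatment label TMX, so this agent was common to both groups; no source used here spells it out or gives the sex and age of the mice, or the promoter or Cre behind the knockout. ALAS stands for 5-aminolevulinate synthase, which starts heme synthesis, and the study asked how it bears on silencing by small RNAs. The tables hold miRNAs only, so the knockout labels could not be checked on the targeted genes. Hepatocytes were enriched by collagenase digestion and slow centrifugation, so other liver cells can remain. Nothing in the labels says that replicates are separate animals, so each p-value measures the spread between these libraries, which may be technical in part.

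A miRNA is cut from a hairpin RNA that leaves a short duplex with a 5p and a 3p arm. Usually 1 arm is kept by an Argonaute protein and guides it to messenger RNAs that match the seed, the bases just after the 5′ end of the miRNA. miR-30 is a conserved vertebrate family whose 5p arms share a seed. It is abundant in epithelial organs such as liver and kidney, it is needed for normal bile duct formation in zebrafish, and it is known to repress Snai1, an inducer of epithelial-to-mesenchymal transition, and Ccn2, a growth factor of fibrosis.

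The mature sequences show what the members share and how little separates some of them, which limits how reads can be told apart. For 7 of the 10 members a sequence was matched in RefSeq on GRCm38.p6; miR-30b-5p, miR-30d-5p and miR-30d-3p are named only. Each is written 5′ to 3′ with the seed, bases 2 to 8, in capitals.
miR-30a-5p: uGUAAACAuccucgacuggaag
miR-30e-5p: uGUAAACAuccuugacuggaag
miR-30c-5p: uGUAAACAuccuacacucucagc
miR-30a-3p: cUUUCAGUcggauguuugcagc
miR-30e-3p: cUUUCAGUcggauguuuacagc
miR-30c-1-3p: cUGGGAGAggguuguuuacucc
miR-30c-2-3p: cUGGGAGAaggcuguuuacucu

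All 3 of these 5p arms carried the seed GUAAACA. Of the 1675 miRNA entries with a RefSeq sequence, the 1 other entry with this seed was miR-384-5p, which had 0 reads in all 7 libraries. The 3p arms fell into 2 seed groups, UUUCAGU for miR-30a-3p and miR-30e-3p and UGGGAGA for miR-30c-1-3p and miR-30c-2-3p. Counted from 1 at the 5′ end, miR-30e-5p differed from miR-30a-5p by the single substitution C13U, and miR-30e-3p differed from miR-30a-3p by the single substitution G18A. miR-30c-1-3p and miR-30c-2-3p differed at 3 positions, and miR-30c-5p differed from miR-30a-5p at 5 of 22 positions. No source used here says how reads that match more than 1 member were counted, so single members with 1 difference are uncertain.

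The hairpins place these arms, which are in capitals in the following RefSeq sequences. They are shown because miR-30c-5p has the same sequence in 2 of them, while each 3p arm belongs to only 1.
Mir30a: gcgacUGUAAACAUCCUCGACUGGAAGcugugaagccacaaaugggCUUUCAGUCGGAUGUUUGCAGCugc
Mir30c-2: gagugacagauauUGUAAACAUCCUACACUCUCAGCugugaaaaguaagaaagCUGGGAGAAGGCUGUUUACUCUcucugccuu
Mir30e: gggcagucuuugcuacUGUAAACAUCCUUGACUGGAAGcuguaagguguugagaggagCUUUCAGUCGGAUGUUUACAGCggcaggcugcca
Mir30c-1: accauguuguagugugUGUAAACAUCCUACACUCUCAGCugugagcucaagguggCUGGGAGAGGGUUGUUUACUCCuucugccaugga

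On GRCm38, with GENCODE M21 genes, Mir30a (chr1:23272269-23272339, plus strand) lies outside any other annotated gene. Mir30c-2 (chr1:23291701-23291784, plus strand) lies 19361 bp further on, in an exon of the long noncoding RNA Gm27028. Mir30e (chr4:120772606-120772697, minus strand) and Mir30c-1 (chr4:120769534-120769622, minus strand) lie 2983 bp apart on the strand of Nfyc, in its introns. Nfyc encodes a subunit of NF-Y, a transcription factor that binds CCAAT boxes. Mir30b (chr15:68337415-68337510, minus strand) overlaps an exon of the noncoding Gm26621, and Mir30d (chr15:68341208-68341289, minus strand) an exon of the long noncoding RNA Gm20732, with 3697 bp between the hairpins. Since miR-30c-5p comes from chromosomes 1 and 4, its reads were assigned to neither locus.

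The libraries held 7719180 to 21962191 miRNA reads, so a level of 1 CPM (counts-per-million, over miRNA reads) stood for 7.72 to 22.0 reads. They had the makeup of hepatocytes: the 7 hepatocyte markers took 63.4% to 66.2% of miRNA reads in WT and 60.7% to 69.3% in ALAS12-KO. Markers of other liver cells were also present, with 0 of 21 absent from all libraries, and ALAS12-KO replicate 1 held the lowest share of each of those 5 lists. Endothelial markers took 3.56% to 5.25% in WT and 1.10% to 3.65% in ALAS12-KO. Leukocyte markers took 0.801% to 1.08% and 0.293% to 0.977%, and mesenchymal markers 0.416% to 0.697% and 0.156% to 0.573%. Cholangiocyte markers took 0.0139% to 0.0243% in WT and 0.00544% to 0.0105% in ALAS12-KO, without overlap, and erythroid markers 0.00170% to 0.00228% and 7.21e-04% to 0.00177%. With TMM factors all 7 hepatocyte markers had log2 fold changes above 0 and 20 of the other 21 below 0, with 0 of either called by edgeR. Of the 6 lists, only the cholangiocyte shares did not overlap between the genotypes. The part of these markers in the miR-30 values was not tested, and fewer cells of a type and less RNA per cell cannot be told apart in such bulk samples.

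The family was led by its 5p arms. Over the 7 libraries mmu-miR-30a-5p averaged 10502 CPM, miR-30e-5p 7555 CPM, miR-30c-5p 3229 CPM, miR-30d-5p 1944 CPM and miR-30b-5p 786 CPM. The 3p arms followed at 421 CPM for miR-30a-3p, 144 CPM for miR-30e-3p, 71.5 CPM for miR-30c-2-3p, 22.5 CPM for miR-30d-3p and 6.09 CPM for miR-30c-1-3p. These RNAs have nearly the same length, 22 or 23 bases for the 7 with a sequence, so CPM compares them without a length correction; ligation and amplification can still favour some sequences. No 2 neighbours in this order overlapped: each was above the next in all 7 libraries, even across genotypes. miR-30a-5p ranked 15 of 1966 miRNAs by mean CPM, miR-30e-5p 20 and miR-30c-1-3p 253.

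Together the 10 members took more of the miRNA reads in ALAS12-KO than in WT. The share was 2.18%, 2.22% and 2.22% in WT replicates 1 to 3, and 2.63%, 2.67%, 2.69% and 2.67% in ALAS12-KO replicates 1 to 4. Every ALAS12-KO library was above every WT library, by a fold of 1.21 between the means, and without ALAS12-KO replicate 1 the log2 ratio was 0.28 in place of 0.27. The 5p arms made up 97.3% of the reads of the family in either genotype, and the 3p arms 2.68% ± 0.0677 (SD, n = 3) in WT against 2.71% ± 0.0927 (SD, n = 4) for ALAS12-KO. As a sum over members that were chosen with earlier results known, the share is given with no test.

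The spread between libraries was taken within groups, as an SD on the log2 scale. By shares of the library total, the sum of the members had an SD of 0.014, and sums of other sets were not compared. The SD of single members ran from 0.04 for miR-30e-5p and miR-30a-5p to 0.15 for miR-30d-5p. Among the 43 tested miRNAs with a mean of at least 1000 CPM the median SD was 0.09, with miR-30e-5p the third smallest, miR-30a-5p the fifth and miR-30d-5p in position 31. These SDs depended on the scaling. Scaled by TMM (trimmed mean of M-values, a factor per library that sets the bulk of miRNAs level), the sum ran from 19704 to 21818 CPM in WT and from 24346 to 32588 CPM in ALAS12-KO, still without overlap. Its SD was then 0.16, and that of single members ran from 0.09 for miR-30d-5p, with miR-30a-5p at 0.13, to 0.24 for miR-30c-5p.

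**Figure D1:**
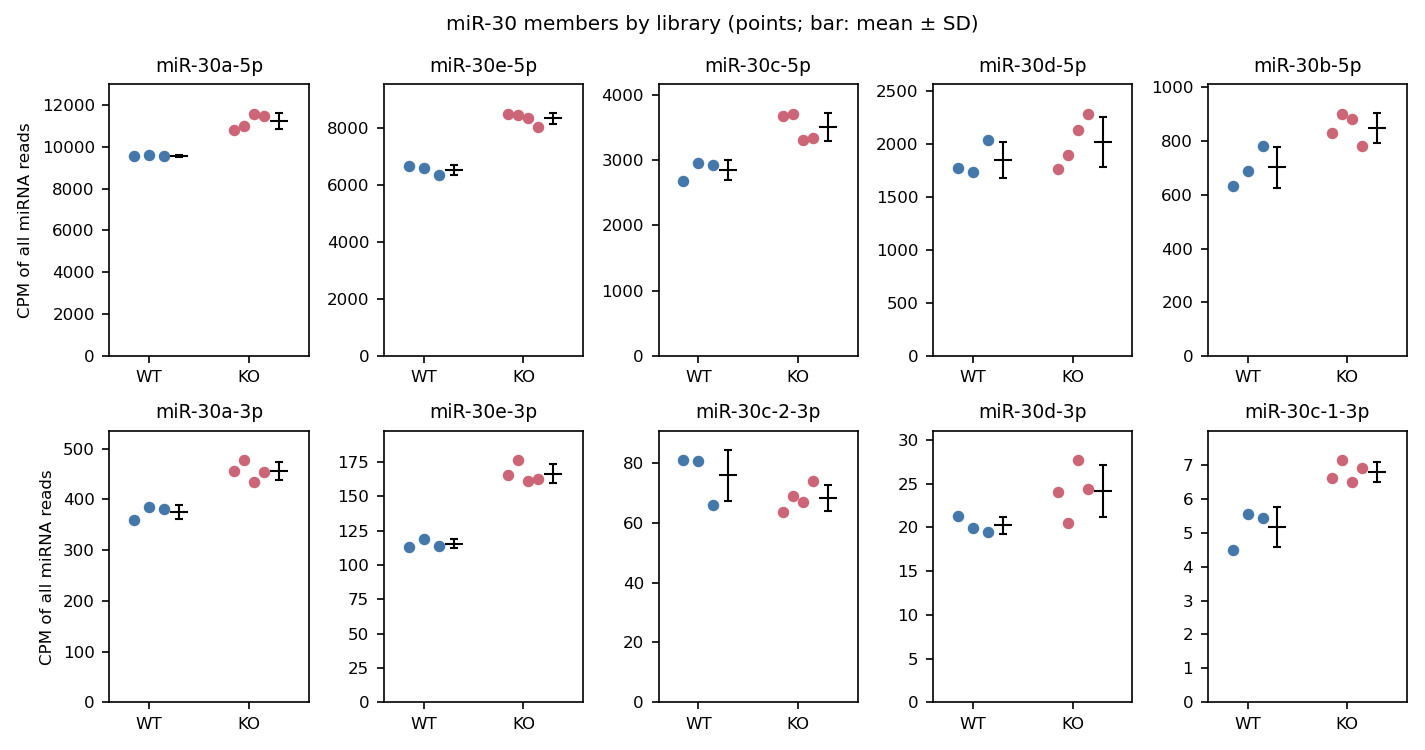
CPM over miRNA reads (y axis, from 0) of the 10 miR-30 members in WT (blue, n = 3) and ALAS12-KO (red, marked KO, n = 4), with replicates from left to right and the mean ± SD as a bar. The groups do not overlap for miR-30a-5p, miR-30e-5p, miR-30c-5p, miR-30a-3p, miR-30e-3p and miR-30c-1-3p, and miR-30c-2-3p is the member whose mean is lower in ALAS12-KO.

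The locus of miR-30e and miR-30c-1 inside Nfyc had the highest fold between the genotypes in its share of miRNA reads, 1.28. mmu-miR-30e-5p was at 6653, 6575 and 6336 CPM in WT and at 8496, 8444, 8338 and 8042 CPM in ALAS12-KO. All 4 ALAS12-KO libraries lay above all 3 WT libraries. Its log2 fold change with TMM factors was 0.55 ± 0.15 (SE), with an edgeR adjusted p of 0.156. Scaled by library totals it was 0.35 ± 0.05 (edgeR adjusted p = 0.0430), so the call depended on the scaling.

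mmu-miR-30e-3p, the other arm of the same hairpin, was at 113, 119 and 114 CPM in WT and at 166, 176, 161 and 162 CPM in ALAS12-KO. Here too the groups were apart, and the fold between the means, 1.44, was the highest of the 10 members. Its log2 fold change was 0.72 ± 0.18 with TMM (edgeR adjusted p = 0.147) and 0.53 ± 0.12 with library totals (edgeR adjusted p = 0.0827). mmu-miR-30c-1-3p, the rarest member, had 72, 122 and 42 reads in WT and 87, 72, 111 and 113 reads in ALAS12-KO. That is 4.49, 5.56 and 5.44 CPM against 6.60, 7.13, 6.49 and 6.90 CPM, again without overlap, and the log2 fold change was 0.58 ± 0.23 (edgeR adjusted p = 0.237). Without miR-30c-5p, this locus held 0.664% ± 0.0165 (SD, n = 3) of WT miRNA reads against 0.850% ± 0.0206 (SD, n = 4) for ALAS12-KO.

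At the chromosome 1 locus, both arms of miR-30a lay higher in all ALAS12-KO libraries than in WT, while the 3p arm of miR-30c-2 overlapped. mmu-miR-30a-5p was at 9538, 9596 and 9538 CPM in WT and at 10800, 10973, 11583 and 11484 CPM in ALAS12-KO. The WT libraries were nearly level, with an SD of 33.9 CPM, and all ALAS12-KO libraries were above them. Its log2 fold change was 0.42 ± 0.12 with TMM (edgeR adjusted p = 0.195) and 0.23 ± 0.04 with library totals (edgeR adjusted p = 0.0708). mmu-miR-30a-3p was at 359, 386 and 381 CPM in WT and at 456, 478, 435 and 455 CPM in ALAS12-KO, also apart, with a log2 fold change of 0.48 ± 0.17 (edgeR adjusted p = 0.220).

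mmu-miR-30c-2-3p was at 80.9, 80.6 and 65.8 CPM in WT and at 63.5, 68.8, 67.0 and 73.9 CPM in ALAS12-KO. The groups overlapped, through WT replicate 3. Its log2 fold change was 0.03 ± 0.18 with TMM (edgeR adjusted p = 0.949) and −0.15 ± 0.14 with library totals, so its direction was not fixed. As a share of the reads of the family it stood at 0.343% ± 0.0409 (SD, n = 3) in WT against 0.256% ± 0.0154 (SD, n = 4) for ALAS12-KO, without overlap. miR-30e-3p was the only other member whose share of the family did not overlap, at 0.522% ± 0.0131 (SD, n = 3) and 0.625% ± 0.0275 (SD, n = 4). Shares within the family depend on each other, and such a lack of overlap was not counted within other families. The locus without miR-30c-5p held 1.00% ± 0.00476 (SD, n = 3) of WT miRNA reads against 1.17% ± 0.0374 (SD, n = 4) for ALAS12-KO.

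mmu-miR-30c-5p, shared by these loci, was at 2677, 2952 and 2931 CPM in WT and at 3676, 3713, 3314 and 3341 CPM in ALAS12-KO. The groups were apart, with ALAS12-KO replicates 1 and 2 the highest. Its log2 fold change was 0.50 ± 0.17 with TMM (edgeR adjusted p = 0.220) and 0.30 ± 0.07 with library totals (edgeR adjusted p = 0.0960).

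The chromosome 15 locus was the one whose share overlapped between the genotypes, at 0.257% ± 0.0236 (SD, n = 3) in WT against 0.289% ± 0.0219 (SD, n = 4) for ALAS12-KO. This overlap depended on the scaling. By TMM-scaled CPM, miR-30b-5p, miR-30d-5p and miR-30d-3p were each higher in all ALAS12-KO libraries than in any WT library. The values that follow are CPM of library totals. mmu-miR-30d-5p was at 1768, 1733 and 2037 CPM in WT and at 1763, 1890, 2130 and 2284 CPM in ALAS12-KO. WT replicate 3 lay above 2 of the ALAS12-KO libraries. The log2 fold change was 0.31 ± 0.12 with TMM (edgeR adjusted p = 0.221) and 0.13 ± 0.11 with library totals.

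mmu-miR-30b-5p was at 634, 688 and 784 CPM in WT and at 829, 903, 884 and 782 CPM in ALAS12-KO, where replicate 4 lay just below WT replicate 3. Its log2 fold change was 0.47 ± 0.16 with TMM (edgeR adjusted p = 0.220). mmu-miR-30d-3p was at 21.3, 19.9 and 19.4 CPM in WT and at 24.0, 20.5, 27.7 and 24.4 CPM in ALAS12-KO, with 1 ALAS12-KO library inside the WT range and a log2 fold change of 0.43 ± 0.18 (edgeR adjusted p = 0.250). The other arm of the miR-30b hairpin, miR-30b-3p, is no listed member. It stood at 12.1 ± 0.390 CPM (SD, n = 3) in WT against 12.7 ± 2.28 CPM (SD, n = 4) for ALAS12-KO, with a log2 fold change of 0.26 ± 0.22 (edgeR adjusted p = 0.528). miR-30f, from the strand opposite Mir30e, had 0 reads in the 3 WT libraries and 0 to 3 reads in the ALAS12-KO libraries, at or below the floor of 3 reads per library.

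**Figure D2:**
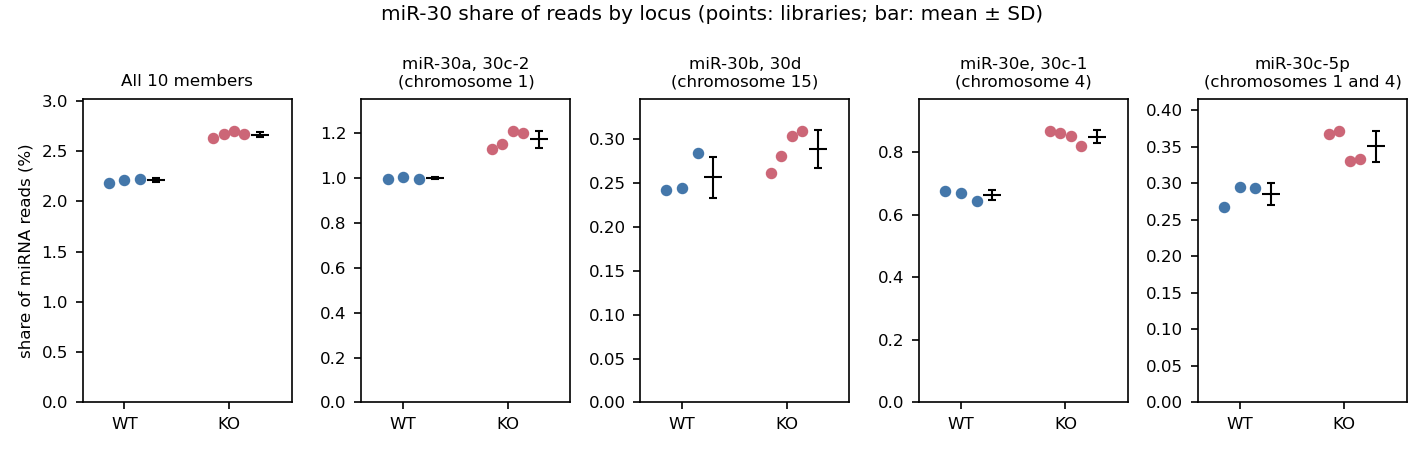
Share of all miRNA reads in percent (y axis, from 0) taken by the 10 members, by the 3 loci without miR-30c-5p, and by miR-30c-5p, in WT (blue, n = 3) and ALAS12-KO (red, marked KO, n = 4), replicates from left to right, with the mean ± SD as a bar. All 4 ALAS12-KO libraries lie above WT in each panel but that of miR-30b and miR-30d.

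Across the whole table, 0 of the 10 members passed the edgeR test with TMM factors, where 0.0% of all 450 tested miRNAs passed. At an unadjusted p under 0.05, 9 of the 10 were higher, all but miR-30c-2-3p, beside 10.2% of all tested miRNAs. All 10 log2 fold changes were above 0, with a median of 0.47, beside 56.0% of all miRNAs and a median of 0.06. limma-voom also called 0 members, and 0.0% of all miRNAs; without adjustment 9.78% of all were higher. DESeq2 placed 9 members higher at an unadjusted p under 0.05, beside 11.6% of all, and after adjustment called 4 members as higher, beside 3.11% of all miRNAs. These were miR-30e-3p, miR-30a-5p, miR-30e-5p and miR-30d-5p, with DESeq2 adjusted p of 0.00210, 0.0235, 0.0258 and 0.0406. Without ALAS12-KO replicate 1 the 9 members other than miR-30c-2-3p were at 0.27 to 0.62, and edgeR called 0. The members share hairpins, loci and near-identical sequences, so they are not independent of each other.

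The scaling moved all log2 fold changes together. Library totals put the median of the 450 miRNAs at −0.12 in place of 0.06, and the median of the members at 0.28. Relative to the median of all miRNAs, the members were at 0.41 with TMM and at 0.40 with library totals. With library totals edgeR called 1 member, miR-30e-5p, beside 0.444% of all miRNAs. There 9 log2 fold changes were above 0, beside 38.9% of all, and 6 members were higher at an unadjusted p under 0.05, beside 4.67%. With TMM factors but no filter on low counts edgeR also called miR-30e-5p, beside 0.461% of all as higher. Of all miRNAs at an unadjusted p under 0.05, 54.8% were higher with TMM and 27.3% with library totals. By CPM of library totals, 6 of 10 members had all ALAS12-KO libraries above all WT libraries, beside 5.33% of all tested miRNAs; by TMM-scaled CPM it was 9 of 10, beside 10.9%.

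**Figure D3:**
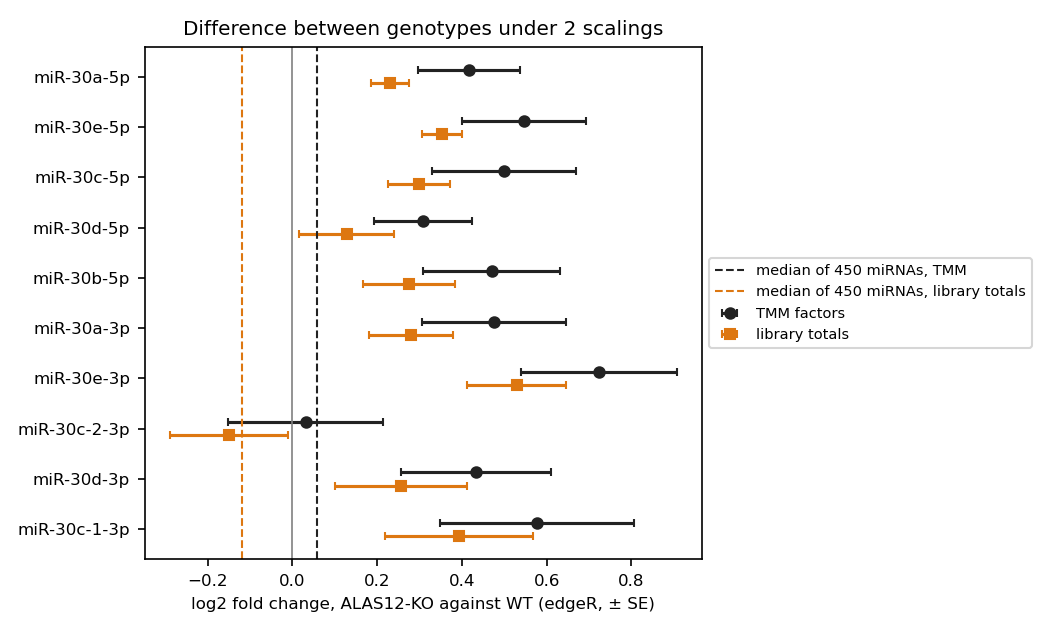
log2 fold change of ALAS12-KO against WT (x axis, edgeR, ± SE) for the 10 members, with TMM factors (black circles) and library totals (orange squares); dashed lines mark the medians of the 450 tested miRNAs, 0.06 and −0.12. All members but miR-30c-2-3p lie to the right of both medians, and the change of scaling moves members and medians alike.

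Whether the loci differed in their response was tested on ratios between members, which do not depend on scaling. There were 7 ratios, 6 between loci and 1 within the chromosome 15 locus, and the smallest p of the two-sided exact permutation test over 35 splits is 0.0286. The miR-30a-3p to miR-30e-3p ratio was 3.18, 3.24 and 3.34 in WT and 2.75, 2.71, 2.70 and 2.80 in ALAS12-KO. The groups were apart, and the log2 ratio differed by −0.25, which gave the smallest possible exact permutation p of 0.0286 and a Benjamini-Hochberg adjusted p of 0.20. The 5p arms of the same hairpins gave a difference of the same sign. miR-30a-5p to miR-30e-5p was 1.43, 1.46 and 1.51 in WT and 1.27, 1.30, 1.39 and 1.43 in ALAS12-KO, where the highest ALAS12-KO library lay just below the lowest WT library. The log2 ratio differed by −0.12 (exact permutation p = 0.0571, adjusted 0.20). miR-30a and miR-30e differ by 1 base in each arm, so both of these ratios carry the uncertainty in read assignment given above.

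Against miR-30d the ratios of miR-30e overlapped between the genotypes. miR-30e-5p to miR-30d-5p was 3.56 ± 0.386 (SD, n = 3) in WT against 4.18 ± 0.576 (SD, n = 4) for ALAS12-KO, at an exact permutation p of 0.20, adjusted 0.35, and miR-30e-3p to miR-30d-3p was 5.70 ± 0.359 and 6.99 ± 1.16 (exact permutation p = 0.114, adjusted 0.267). The log2 ratio of miR-30a to miR-30d differed by 0.11 for the 5p arms (exact permutation p = 0.343, adjusted 0.40) and by 0.03 for the 3p arms (exact permutation p = 0.943). Within the chromosome 15 locus, miR-30b-5p to miR-30d-5p was 0.380 ± 0.0197 (SD, n = 3) in WT against 0.426 ± 0.0626 (SD, n = 4) for ALAS12-KO, at an exact permutation p of 0.286, adjusted 0.40. So 0 of the 7 ratios passed after adjustment, and a ratio at the smallest possible p could pass only had most of the 7 reached it.

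The balance of the 5p arms also differed among the ALAS12-KO libraries. In replicates 1 and 2 miR-30e-5p was 4.82 and 4.47 times miR-30d-5p, and in replicates 3 and 4 it was 3.91 and 3.52 times. miR-30b-5p to miR-30d-5p was 0.470 and 0.477 in replicates 1 and 2 and 0.415 and 0.342 in replicates 3 and 4. Both ratios have miR-30d-5p as the denominator, so they are not separate observations. WT libraries varied too, at 3.76, 3.79 and 3.11 for miR-30e-5p to miR-30d-5p and 0.359, 0.397 and 0.385 for miR-30b-5p to miR-30d-5p. Replicates 1 and 2 were also the ALAS12-KO libraries with the lowest endothelial marker shares, 1.10% and 2.55%, against 3.65% and 2.96% in replicates 3 and 4, and with the lowest TMM factors, 0.806 and 0.879 against 1.11 and 1.03. The part of these in the ratios was not tested.

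**Figure D4:**
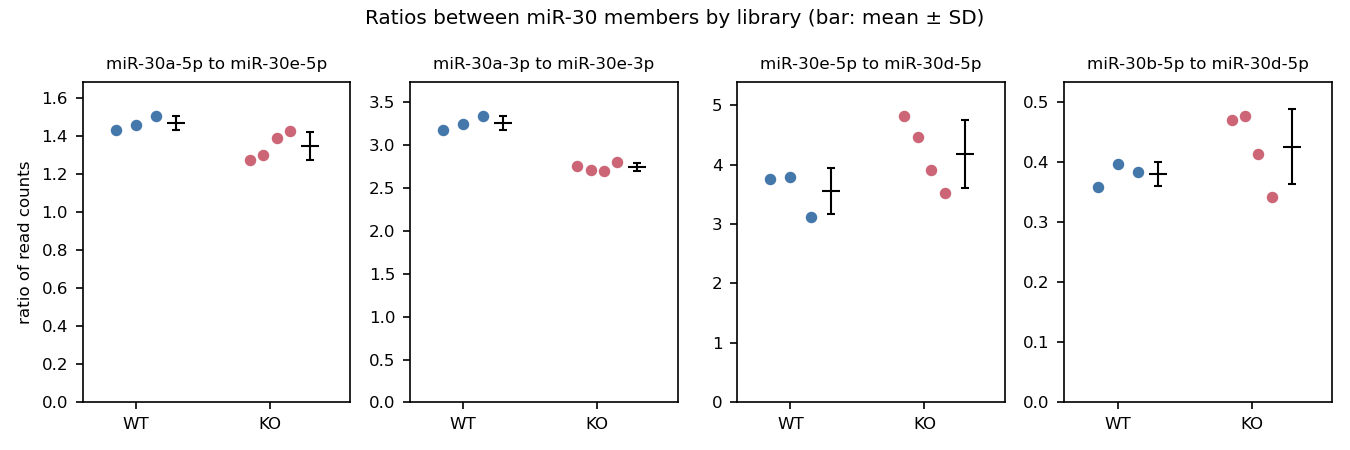
Ratios of read counts between miR-30 members (y axis, from 0) in WT (blue, n = 3) and ALAS12-KO (red, marked KO, n = 4), replicates from left to right, with the mean ± SD as a bar. The ratios of miR-30a to miR-30e do not overlap between the genotypes for either arm, while the ratios to miR-30d-5p overlap. miR-30a and miR-30e differ by 1 base in each arm, so their read assignment is uncertain.

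The arms of each hairpin were compared next, as the 3p reads per 100 reads of the 5p arm, since a change in which arm is kept would move this ratio. In WT it was 3.93 ± 0.144 (SD, n = 3) for miR-30a, 1.77 ± 0.0637 for miR-30e and 1.10 ± 0.131 for miR-30d. For the hairpins of miR-30c, each 3p arm was set against the pooled 5p arm, giving 2.67 ± 0.391 for miR-30c-2 and 0.182 ± 0.0112 for miR-30c-1. The 5p arm was thus in large excess for miR-30a, miR-30e and miR-30d. For each miR-30c hairpin alone the excess is not known, as the pooled 5p reads could not be divided. In ALAS12-KO (n = 4) the values were 4.07 ± 0.267, 2.00 ± 0.0709, 1.20 ± 0.149, 1.95 ± 0.210 and 0.195 ± 0.0110.

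The sixth hairpin, miR-30b, has a 3p arm that is no listed member; its ratio was 1.74 ± 0.132 (SD, n = 3) in WT against 1.51 ± 0.288 (SD, n = 4) for ALAS12-KO, overlapping, with a log2 difference of −0.23 ± 0.18 (limma adjusted p = 0.728).

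For miR-30e the ratio was 1.70, 1.81 and 1.80 in WT and 1.95, 2.09, 1.93 and 2.02 in ALAS12-KO, higher in all 4 than in any WT library. The log2 difference was 0.18 ± 0.11 (limma adjusted p = 0.699). For miR-30c-2 it was 3.02, 2.73 and 2.25 in WT and 1.73, 1.85, 2.02 and 2.21 in ALAS12-KO, lower in all 4 than in any WT library, with a log2 difference of −0.44 ± 0.16 (limma adjusted p = 0.602). The other 3 hairpins with a listed 3p arm overlapped, with log2 differences of 0.05 ± 0.12 for miR-30a, 0.12 ± 0.16 for miR-30d and 0.10 ± 0.12 for miR-30c-1. limma called 0 of the 6, where 0.0% of 153 hairpins passed. At an unadjusted p under 0.05 it was 1 of 6, miR-30c-2, beside 6.54% of all hairpins. How many of all hairpins had arm ratios without overlap was not counted, so the lack of overlap here has no such share beside it.

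Because miR-30c-5p pools 2 hairpins, its ratio to miR-30c-2-3p can move with the output of either. The 3p arms tell these hairpins apart, in a ratio chosen after its values were seen and given with no test. miR-30c-1-3p stood at 5.59, 6.92 and 8.36 reads per 100 reads of miR-30c-2-3p in WT, and at 10.4, 10.4, 9.73 and 9.37 in ALAS12-KO. Every ALAS12-KO library was above WT. By CPM of library totals, the fold between the means was 1.31 for miR-30c-1-3p and 0.902 for miR-30c-2-3p. For miR-30a-3p, at the same locus as miR-30c-2-3p, it was 1.21, so the members of this locus did not move together. Which hairpin changed its output was not tested.

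**Figure D5:**
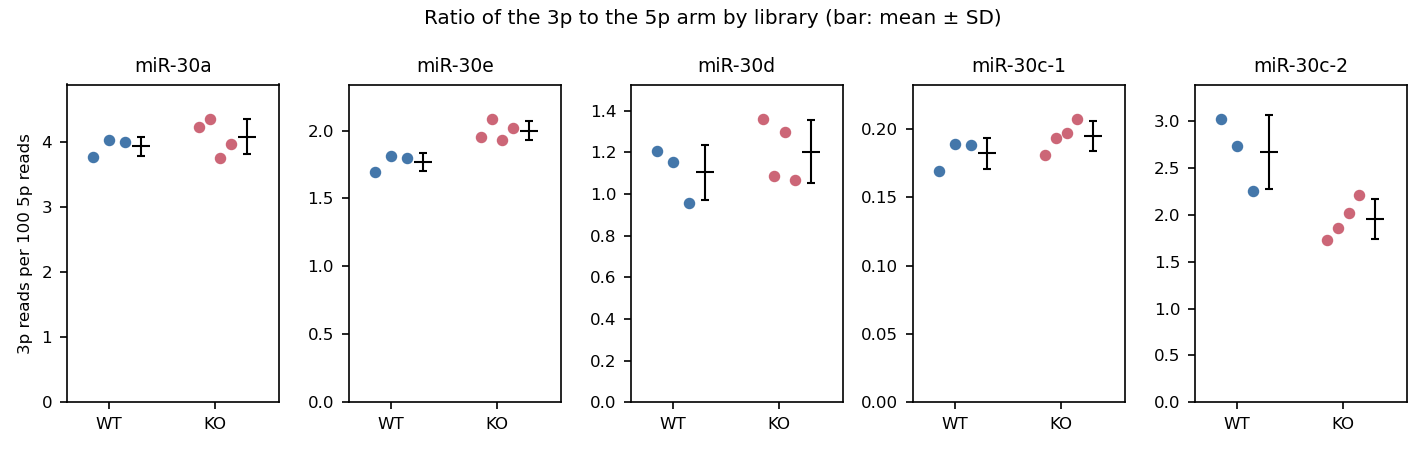
Reads of the 3p arm per 100 reads of the 5p arm (y axis, from 0) for the 5 miR-30 hairpins with a listed 3p arm in WT (blue, n = 3) and ALAS12-KO (red, marked KO, n = 4), replicates from left to right, with the mean ± SD as a bar; both miR-30c hairpins are set against the pooled miR-30c-5p. miR-30e lies higher and miR-30c-2 lower in all 4 ALAS12-KO libraries, and the other 3 overlap. The share of all hairpins without overlap was not counted.

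Outside the family, the miRNAs whose profile over the 7 libraries was most like that of the summed members were miR-101a-3p, miR-676-3p, let-7c-2-3p, miR-203b-3p and miR-203-3p. Likeness was the mean absolute difference between log2 CPM profiles, each centred on its own mean, so that miRNAs with a small spread come close more easily. It was 0.05 for miR-101a-3p, 0.08 for each of the other 4, and a median of 0.28 over 213 candidates. The members themselves ranged from 0.03 for miR-30a-5p to 0.20 for miR-30c-2-3p. Each member is part of the sum it was compared with, most of all miR-30a-5p, so these values are not comparable with those of non-members. miR-101a-3p stood at 8248 ± 486 CPM (SD, n = 3) in WT against 9414 ± 431 CPM (SD, n = 4) for ALAS12-KO, and miR-203-3p at 1462 ± 43.5 CPM and 1970 ± 104 CPM, both without overlap. miR-203b-3p, at 30.0 ± 3.52 CPM and 34.9 ± 1.00 CPM, did not overlap either. miR-676-3p, at 20.9 ± 1.09 CPM and 22.9 ± 1.49 CPM, and let-7c-2-3p, at 98.3 ± 7.23 CPM and 106 ± 3.25 CPM, overlapped. edgeR called 0 of these 5, with adjusted p from 0.156 for miR-203-3p to 0.365 for miR-676-3p. All 5 were picked for likeness to a sum that was itself apart between the genotypes. Their higher values in ALAS12-KO, and the lack of overlap, thus follow in part from that choice. miR-203b-3p comes from the strand opposite Mir203, and no source used here says if counting was stranded, so its count is uncertain.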

How the data were processed

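Each of the 7 libraries has 1 deposited table of raw read counts per mature miRNA; the values are whole numbers with no scaling, and 5 summary entries for unassigned reads were left out. Per the submitters' processing notes, cutadapt, limma, mm10 and hg38 were used, in roles and versions that are not given. No source used here names the aligner or counter, or says how reads matching several miRNAs were handled. The summary entry for non-unique alignments was 0 in all 7 libraries, while miR-30c-5p, which matches 2 hairpins, had 22623 to 64832 reads. Reads outside any miRNA were 50.9% to 73.7% of those counted. The added control RNAs were not used here, so levels are relative to all miRNAs.

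Values are CPM of the summed miRNA counts. ALAS12-KO was compared with WT by edgeR 4.0.16 in R 4.3.3 (TMM factors, a robust quasi-likelihood test, at least 10 counts in filterByExpr, Benjamini-Hochberg adjustment over 450 miRNAs, threshold 0.05); all 10 members passed the filter. Arm ratios, over 153 hairpins with both arms tested, used limma 3.58.1 on log2 ratios with 0.5 added. Ratios between members used an exact permutation test. Alternatives were DESeq2 1.42.0, limma-voom, other scalings and filters, leaving out single libraries, and a block on the replicate number. The edgeR and limma code was tested on simulated data. No library was a duplicate: within groups, pairs gave a chi-square of 113 to 1219 per degree of freedom. Reads carry no molecular identifiers here, so floors cover counting error only.

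Named were all members, other miR-30 entries, miRNAs with the seed of miR-30a-5p, marker lists as groups, and the 5 nearest profiles among non-members with a mean CPM of at least 10. The members and lists were chosen with earlier results of these data known. Sequences are from RefSeq (GRCm38.p6) and gene positions from GENCODE M21.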

Additional observations from a re-analysis of the deposited data

How the results depend on the processing

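With TMM factors edgeR called 0 miRNAs and 0 members. Library totals called 2 miRNAs, 1 of them a member, DESeq2 21 and 4, and edgeR with no filter on low counts 13 and 1 (miR-30e-5p); DESeq2 size factors, upper-quartile factors, limma-voom and a mean CPM of at least 10 called 0. Leaving out each library called 0 to 1 miRNAs (1 without ALAS12-KO replicate 2) and 0 members. The log2 fold changes of 9 members stayed above 0 in every alternative that could be run (miR-30c-1-3p fell under the filter at a mean CPM of 10). miR-30c-2-3p changed sign: −0.15 with library totals, −0.060 with upper-quartile factors, −0.022 with no filter, −0.11 at a mean CPM of 10, and from −0.11 to 0.12 when single libraries were left out (−0.11 without WT replicate 3, −0.03 without ALAS12-KO replicate 1, −0.04 without replicate 2, −0.01 without replicate 4); the cause was not tested. The ratio of miR-30a-3p to miR-30d-3p ran from −0.065 to 0.12 on the log2 scale when single libraries were left out (below 0 without WT replicate 1 or ALAS12-KO replicate 2). The other 6 ratios and the arm ratios of the 5 hairpins with a listed 3p arm kept their direction, and 0 hairpins were called in any alternative, but single libraries moved several of these log2 differences by over 1.5 times. miR-30a-5p to miR-30d-5p (0.11) was 0.03 without WT replicate 3 and 0.06 without ALAS12-KO replicate 1. miR-30e-5p to miR-30d-5p (0.23) was 0.14 without WT replicate 3, and miR-30e-3p to miR-30d-3p (0.28) was 0.18 without ALAS12-KO replicate 2. miR-30b-5p to miR-30d-5p (0.15) was 0.10 without ALAS12-KO replicate 1 or 2 and 0.26 without replicate 4. The arm ratio of miR-30d (0.12) was 0.02 without WT replicate 3, 0.06 without ALAS12-KO replicate 1 and 0.19 without WT replicate 1. That of miR-30a (0.05) ran from 0.02, without ALAS12-KO replicate 2 or WT replicate 1, over 0.03 without ALAS12-KO replicate 1, to 0.09 without ALAS12-KO replicate 3, and that of miR-30c-1 (0.10) was 0.04 without WT replicate 1. The log2 ratio of the share of the 10 members between genotypes ran from 0.26 to 0.28 without single libraries. Taken over all aligned reads it was 0.35 for the 10 members, 0.31 for the chromosome 1 locus and 0.44 for the chromosome 4 locus. It was 0.35 for the 5p arms and 0.37 for the 3p arms. On that denominator these shares overlapped between the genotypes, with ALAS12-KO replicate 2 below WT replicates 1 and 2. Reads outside any miRNA were 72.2% of those counted in ALAS12-KO replicate 2, against 60.6% and 50.9% in these WT replicates. With a replicate block edgeR called 0 miRNAs and limma 0 hairpins, as without it. Same-numbered libraries had correlations of their deviations of −0.03, −0.47 and 0.00, and differently numbered ones from −0.36 to 0.53. With so few libraries these values cannot decide whether the numbers pair the samples. With 42 to 122 reads per library, miR-30c-1-3p is the member whose value depth limits most.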
